A study of Mus musculus with 13 samples.

Results

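The axon guidance ligands and receptors carried by the array were followed over 5 sorted cell populations of the mouse cochlea. The members were genes chosen by their symbol in the deposited table. It starts with Sema, Plxn, Efna, Efnb, Epha, Ephb, Slit and a digit, Robo, Ntn or Unc5, or is Nrp1, Nrp2 or Dcc. The rule found 66 of the 18038 genes on the array, on 100 probes. Of these, 35 were ligand genes and 29 receptor genes, and 2, Unc50, a Golgi protein, and Unc5cl, matched by name only. All cells came from C57BL6 Math1-nGFP mice, aged 3 days, in which a Math1 (Atoh1) reporter marks hair cells with nuclear GFP. Total RNA of each sorted population was amplified, labelled with biotin and hybridised to 1 Illumina BeadChip array per sample, 13 arrays in all. BM (1 array) held GFP-negative, CD271-low, CD326-negative cells from below the basilar membrane. CD271high (3 arrays) held GFP-negative cells with high CD271 that the submitters suspected to be macrophages. HC (4 arrays) held the GFP-positive hair cells. GER (3 arrays) held GFP-negative, CD271-low, CD326-positive cells with high CD146, from the greater epithelial ridge, and DC (2 arrays) the matching cells with low CD146, Deiters' and Claudius cells. The labels do not say whether replicates came from separate animals, so p-values measure the spread between these arrays, which may be technical. In such bulk samples fewer cells of a type and less RNA per cell cannot be told apart.

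Axon guidance cues steer growing neurites and shape boundaries between neighbouring cell groups. Secreted semaphorins bind neuropilins that pair with plexins, membrane semaphorins bind plexins directly, ephrins bind Eph receptor tyrosine kinases on touching cells, Slits bind Robo receptors, and netrins bind Dcc and Unc5 receptors. In the newborn cochlea the peripheral processes of spiral ganglion neurons are being sorted onto inner and outer hair cells across the supporting cell layer, and members of several of these families are known to act there.

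Expression is given as a normalised log2 level, and a level was called detected where the scanner's detection p-value was under 0.01. A gene was tested where a probe was detected on at least 2 of the 13 arrays, which 10088 genes passed. Of the members, 43 passed, 24 ligand and 19 receptor genes, and 20 members were detected on no array. Those 20 included Ntn1, the classical floor plate netrin, Slit1, Robo2, Plxna1, Plxna3, Plxna4 and Plxnc1, the Sema7a receptor. Epha5 and Sema6c were detected on 1 array only, and Nrp2, a receptor for secreted semaphorins, on 2 arrays but through different probes. These 23 members were not well above background and have no further values. All 5 EphB and all 3 ephrin-B genes passed, as did 10 of 12 membrane semaphorins, 4 of 7 secreted semaphorins, 4 of 8 plexins and 1 of 3 netrins. Since the filter could be met by 1 population, counts over the 43 genes describe the genes that passed, not the families: Epha2 was detected in CD271high alone and Unc5a in HC alone, while 30 of the 43 were detected in all 5 populations. Nrp1, Ntn5 and Epha10 are on the array under other symbols, so the rule did not count these 3. Nrp1 and Ntn5 passed and are named separately below, Epha10 was detected on no array, and Dcc was not analysed here.

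**Figure D1:**
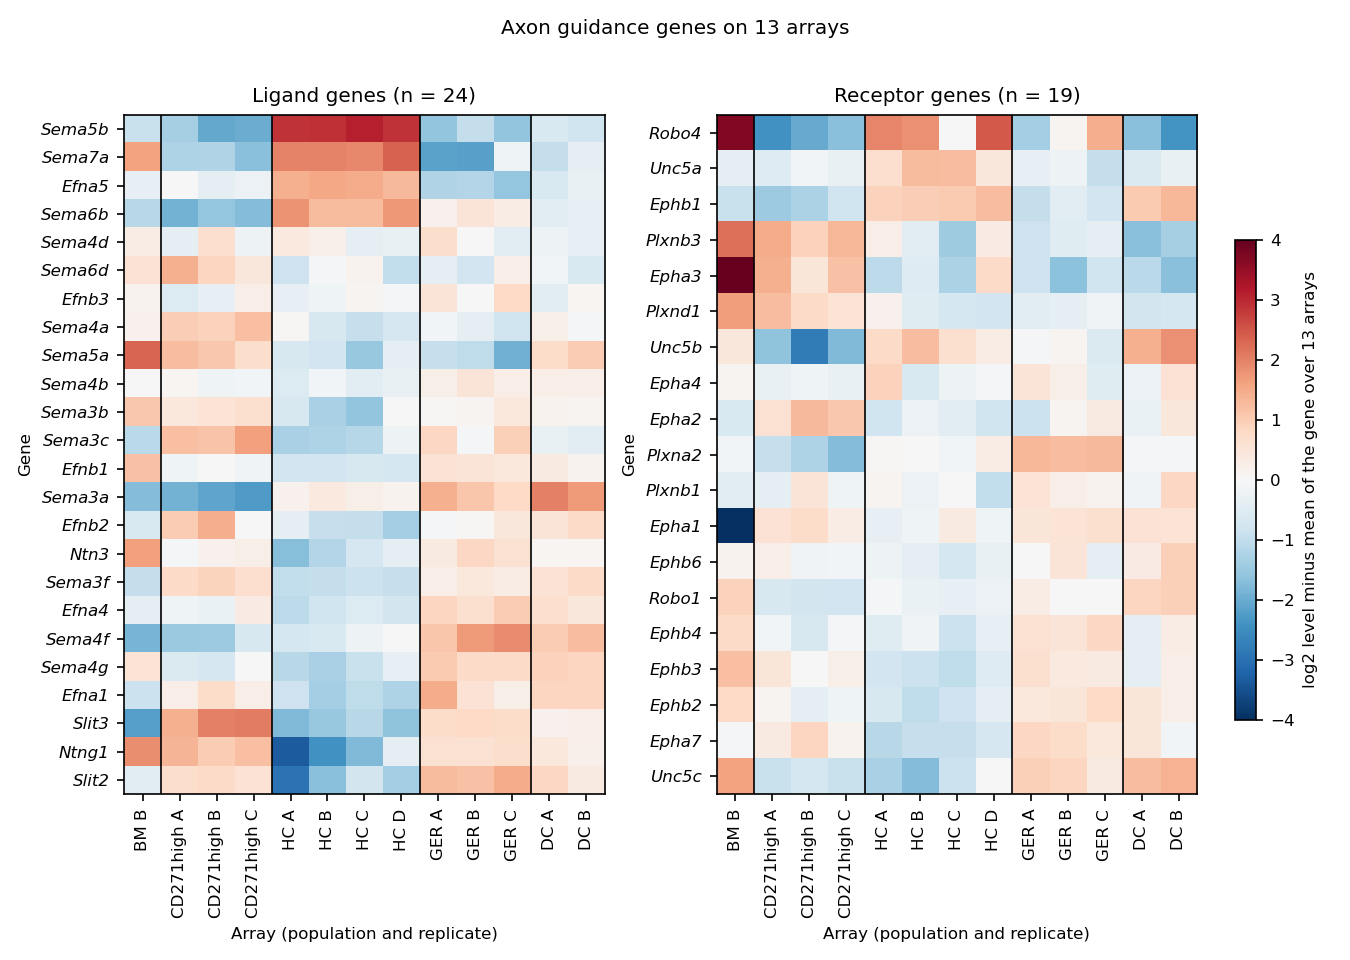
Log2 level of the 24 ligand genes (left) and 19 receptor genes (right) that passed the filter, on each of the 13 arrays, as the difference from the gene's mean over the 13 arrays, with colours capped at the ends of the scale. Sema5b, Sema7a, Efna5 and Sema6b form a red block in HC, most other ligand rows are blue there, and Epha3, Robo4 and Sema5a are at their highest in BM.

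The sorted populations were checked against marker lists before the members were compared. The mean level of 10 hair cell markers was 13.1 to 13.4 on the HC arrays and at most 8.42 elsewhere. The 6 measured GER markers were as high in DC (13.6 to 13.7) as in GER (13.4 to 13.5), so these did not separate the gates, while 8 Deiters, pillar and Claudius markers averaged 11.7 to 12.1 in DC and 8.92 to 9.38 in GER. In HC the same 8 markers averaged 10.2 to 10.7, between the gates, and all were detected on every array. The 5 measured neuron markers, of 12 listed, averaged 11.9 to 12.4 in HC, against 10.4 to 10.6 in GER and 9.85 to 10.0 in DC. In CD271high all 11 measured macrophage markers, of 12 listed, were detected (12.8 to 12.9). The 4 measured Schwann and satellite glia markers, of 8 listed, averaged 13.6 to 14.1 there. The BM array held glia (14.6), mesenchyme (11.7), endothelium (10.6) and pericyte (10.3) markers. HC replicate D stood apart from the other HC arrays in glia (11.9, against 8.23 to 9.09) and pericyte markers (8.66, against 5.996 to 6.27), and also in mesenchyme (8.65, against 7.71 to 7.87) and macrophage markers (7.75, against 6.98 to 7.23). Of the 2 beadchips, beadchip 2 carried CD271high A, 3 of the HC arrays (B, C and D) and GER C, and beadchip 1 the other arrays.

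In hair cells 4 ligand genes were higher than in the 2 epithelial gates beside them, and 15 were lower. The 4 were 3 membrane-bound semaphorins (Sema5b, Sema7a and Sema6b) and the ephrin Efna5. In all, 7 of the 43 members were higher in HC (16.3%, against 19.5% of all genes tested) and 24 were lower (55.8%, against 26.5% of all genes). The median difference was -1.07 over the 24 ligand genes and -0.54 over the 19 receptor genes, beside -0.09 over all 10088 genes. Each difference is the HC mean minus the average of the GER and DC means, on the log2 scale, and a gene was called where the adjusted p was under 0.05. With beadchip as a term 7 members were higher (18.1% of all genes were) and 23 lower (24.2%). Within beadchip 1 HC A was the only HC array, and within beadchip 2 GER C was the only array to compare with. No conclusion is therefore drawn from counts within either.

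Sema5b, a transmembrane semaphorin with thrombospondin repeats, had levels of 11.69, 11.72, 11.91 and 11.68 in HC, against 7.23, 7.86 and 7.24 in GER and 8.21 and 8.01 in DC. The HC arrays lay close together and far above the other 5. The difference was 3.97 ± 0.18 (SE) (adjusted p = 5.57e-09), or 15.7-fold higher in HC. Sema7a, a semaphorin held in the membrane by a lipid anchor, was at 9.58, 9.57, 9.52 and 9.95 in HC, against 5.44, 5.41 and 7.42 in GER and 6.64 and 7.18 in DC. It was detected on all 4 HC arrays but on only 2 of the 5 GER and DC arrays, so the difference of 3.15 ± 0.36 (SE) (adjusted p = 1.95e-05) rests on reference values that are mostly near background. Efna5, a lipid-anchored ligand of EphA receptors, was at 13.55, 13.67, 13.60 and 13.40 in HC, against 10.89, 10.94 and 10.56 in GER and 11.49 and 11.81 in DC. All 5 populations expressed Efna5, and HC exceeded every other array. The difference from GER and DC was 2.33 ± 0.14 (SE) (adjusted p = 4.73e-08), 5.03-fold. Sema6b, a transmembrane semaphorin known to bind A-type plexins, was at 11.73, 11.22, 11.22 and 11.66 in HC, against 10.12, 10.45 and 10.24 in GER and 9.50 and 9.60 in DC, a difference of 1.55 ± 0.15 (SE) (adjusted p = 5.03e-06). The HC and GER ranges did not meet for any of these 4 genes, and the same held for HC and DC. HC lay wholly above or below the GER and DC arrays for 25 of the 43 members and 36.7% of all genes.

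**Figure D2:**
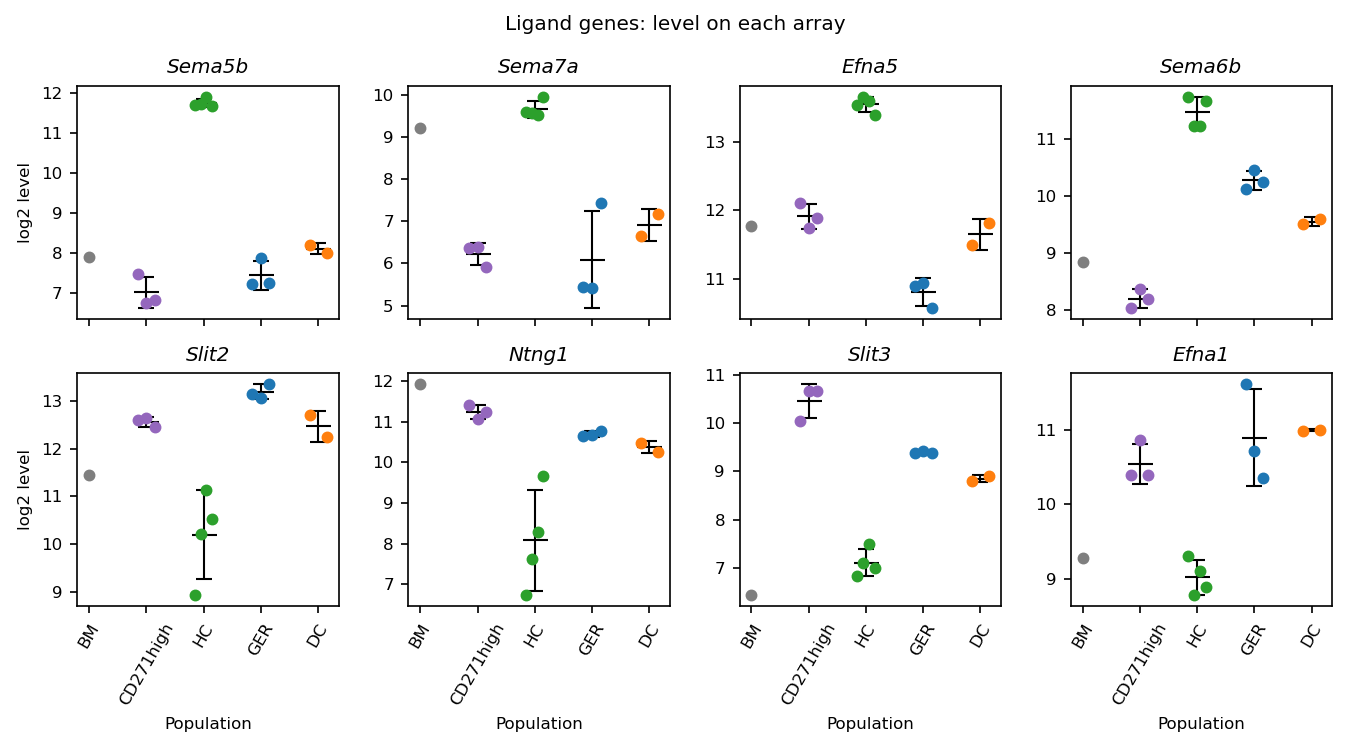
Log2 level of 8 ligand genes on each array (points) by population, with the mean and SD (bars) where a population has more than 1 array. The HC points lie above GER and DC for Sema5b, Sema7a, Efna5 and Sema6b, and below them for Slit2, Ntng1, Slit3 and Efna1.

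The bases just upstream of the start site are shown for the 3 ligand genes with the largest rise in HC, since the reporter that marks these cells follows Atoh1, a basic helix-loop-helix factor known to bind E-box motifs. The sequences are the 250 bases before the annotated start in RefSeq (GRCm38.p6), 5′ to 3′ on the strand of the gene: Sema5b at chr16:35541112-35541361 (plus strand), Sema7a at chr9:57939862-57940111 (plus strand) and Efna5 at chr17:62881318-62881567 (minus strand). Capitals mark the E-box letters CAGCTG or CAGATG, searched on both strands.
Sema5b: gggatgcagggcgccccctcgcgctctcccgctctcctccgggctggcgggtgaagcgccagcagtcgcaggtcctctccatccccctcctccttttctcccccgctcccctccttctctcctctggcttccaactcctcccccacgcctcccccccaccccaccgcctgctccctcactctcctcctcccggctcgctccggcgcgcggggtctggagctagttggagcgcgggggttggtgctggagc
Sema7a: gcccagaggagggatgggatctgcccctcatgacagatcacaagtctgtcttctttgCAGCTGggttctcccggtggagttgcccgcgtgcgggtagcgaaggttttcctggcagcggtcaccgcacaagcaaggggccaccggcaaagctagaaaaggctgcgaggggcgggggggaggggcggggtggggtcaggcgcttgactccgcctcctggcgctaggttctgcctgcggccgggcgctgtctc
Efna5: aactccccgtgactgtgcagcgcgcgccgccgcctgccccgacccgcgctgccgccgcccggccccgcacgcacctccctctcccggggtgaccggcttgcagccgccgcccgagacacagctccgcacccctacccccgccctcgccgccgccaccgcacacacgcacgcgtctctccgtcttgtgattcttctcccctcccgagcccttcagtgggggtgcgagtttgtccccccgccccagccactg
The Sema7a window held 1 CAGCTG and no CAGATG, and the windows of Sema5b and Efna5 held neither, nor did those of the 2 annotated starts of Sema6b. Among 32851 windows of the same length, 13.001% held CAGCTG, 14.4% held CAGATG and 25.5% held either. GC content was 72% for Sema5b, 66.4% for Sema7a and 74.8% for Efna5. The match in Sema7a is a description of these letters and not a binding site, and binding was not measured.

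Both Slit genes that were measured were lower in hair cells. Slit2, a secreted repellent read by Robo receptors, was at 8.92, 10.20, 11.13 and 10.53 in HC, against 13.15, 13.06 and 13.36 in GER and 12.70 and 12.24 in DC. Every HC array was below every GER and DC array, with a difference of -2.63 ± 0.34 (SE) (adjusted p = 5.90e-05), 6.20-fold lower, although HC A was lower than the other HC arrays; without HC A the difference was -2.21. Slit3, a second ligand of the same receptors, was at 6.85, 7.11, 7.50 and 7.01 in HC, against 9.37, 9.43 and 9.37 in GER and 8.79 and 8.90 in DC, and it was detected on 2 of 4 HC arrays. The difference was -1.9996 ± 0.17 (SE) (adjusted p = 1.46e-06). Ntng1, a membrane-anchored netrin-G that binds a partner other than Dcc and Unc5, was at 6.72, 7.63, 8.29 and 9.67 in HC, against 10.66, 10.67 and 10.78 in GER and 10.48 and 10.27 in DC. Its HC arrays were the most scattered of these genes, with HC D, the array with more glia and pericyte marker signal, closest to the other populations. The difference was -2.46 ± 0.44 (SE) (adjusted p = 6.54e-04) with HC D and -2.99 without it, and the part of those cells in the level was not tested. Efna1, an ephrin-A, was at 9.31, 8.78, 9.12 and 8.90 in HC, against 11.61, 10.71 and 10.35 in GER and 10.98 and 10.998 in DC, with no overlap and a difference of -1.91 ± 0.23 (SE) (adjusted p = 3.27e-05).

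The remaining 11 lower ligand genes differed by -0.63 to -1.78. The transmembrane class 4 semaphorins Sema4g (-1.78, adjusted p = 2.02e-05), Sema4f (-1.72) and Sema4b (-0.63) were among them, whereas Sema4a and Sema4d did not pass the test. The secreted semaphorins were lower, with differences of -1.43 ± 0.11 (SE) (adjusted p = 4.55e-07) for Sema3f, -1.25 ± 0.15 (SE) (adjusted p = 2.94e-05) for Sema3a and -1.04 ± 0.26 (SE) (adjusted p = 0.00680) for Sema3b. Sema3f, a repellent that acts through neuropilins, was at 12.03, 12.05, 12.16 and 12.11 in HC, against 13.28, 13.43 and 13.32 in GER and 13.59 and 13.78 in DC, and its populations were narrow and separate. Sema3c was also called lower (adjusted p = 0.00556), but it was detected on no HC array and on 2 of the 5 others, so no size is given for it. The ephrins Efna4 (-1.48), Efnb2 (-1.31) and Efnb1 (-1.08) and the secreted netrin Ntn3 (-1.32) were lower too. Efna5 was therefore the only one of the 3 measured ephrin-A genes to be higher in HC, with Efna1 and Efna4 below the epithelial gates. For the 5 ligand genes that were not called, Sema5a (-0.62, 95% interval -1.19 to -0.06), Sema4a (-0.38), Efnb3 (-0.23), Sema6d (-0.11) and Sema4d (0.08), adjusted p-values ran from 0.0685 to 0.844.

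**Figure D3:**
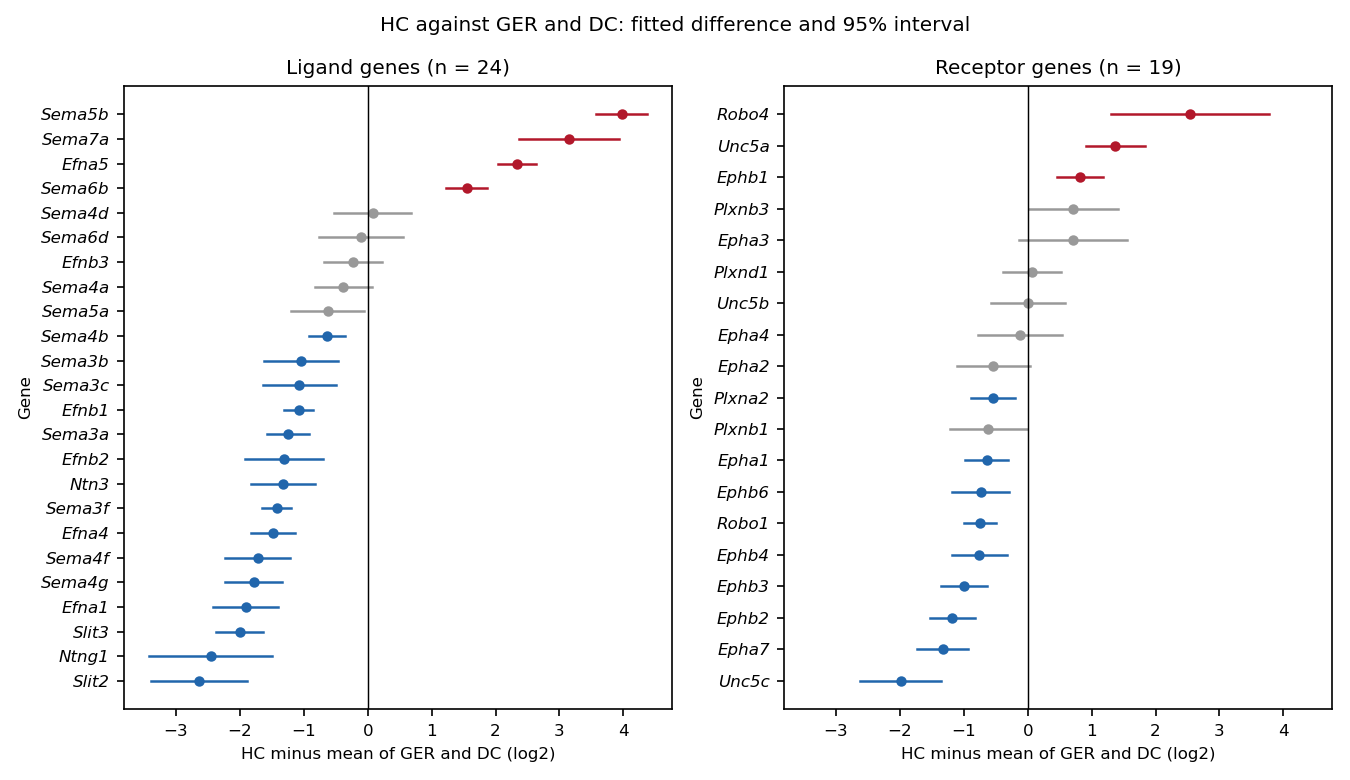
Fitted log2 difference, HC minus the mean of GER and DC, for each ligand gene (left) and receptor gene (right) that passed the filter, as points with 95% intervals. Red points are called higher (4 ligand and 3 receptor genes), blue points lower (15 and 9) and grey points did not pass the test.

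Among the 19 receptor genes, 3 were higher in HC, 9 were lower and 7 were not called. Robo4, a Robo receptor known from vascular endothelium, was at 9.89, 9.76, 7.94 and 10.40 in HC, against 6.58, 8.04 and 9.38 in GER and 6.27 and 5.55 in DC. Its HC and GER arrays overlapped, and the difference of 2.54 ± 0.57 (SE) (adjusted p = 0.00300) was -0.020 within beadchip 2 and was 1.496 against GER alone (adjusted p = 0.0791). Beside it, the mean of 9 endothelium markers was 7.63 to 9.57 on the HC arrays, 6.98 to 8.67 on the GER arrays and 6.67 to 6.84 on the DC arrays, and HC C was the lowest HC array and GER C the highest GER array for these markers and for Robo4 alike. The part of endothelial cells in the Robo4 level was not tested. Without Robo4, 6 members were higher in HC. Unc5a, a netrin receptor, was at 6.80, 7.38, 7.35 and 6.59 in HC, against 5.80, 5.91 and 5.17 in GER and 5.55 and 5.82 in DC. It was detected on 2 of the 4 HC arrays and on none of the others, so it passed the filter through HC alone. It was bound to be higher there, and its place among the called genes supports nothing. Ephb1, a receptor kinase for B-type ephrins, was at 11.77, 11.86, 11.92 and 12.11 in HC, against 9.91, 10.44 and 10.09 in GER and 11.90 and 12.19 in DC. HC and DC overlapped and GER was lower, so the difference from the 2 gates together, 0.82 ± 0.17 (SE) (adjusted p = 0.00162), held against GER alone (1.77) and was -0.13 against DC alone (adjusted p = 0.680).

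Unc5c, another netrin receptor, showed the opposite pattern to Unc5a, at 6.72, 6.29, 7.17 and 8.03 in HC, against 8.98, 8.88 and 8.37 in GER and 9.27 and 9.41 in DC. It was detected on 2 of the 4 HC arrays, HC D was again the highest of them, and the difference was -1.99 ± 0.29 (SE) (adjusted p = 1.40e-04), or -2.32 without HC D. Epha7, an EphA receptor, was at 10.99, 11.18, 11.15 and 11.41 in HC, against 12.92, 12.82 and 12.52 in GER and 12.59 and 11.97 in DC, a difference of -1.33 ± 0.18 (SE) (adjusted p = 9.11e-05) with no overlap. Its other 2 probes gave -2.46 and -1.84 in the same direction. Among the 5 EphB genes, 4 were lower in HC and Ephb1 was the exception. Ephb2 was at 9.45, 9.06, 9.26 and 9.71 in HC, against 10.51, 10.55 and 10.88 in GER and 10.56 and 10.34 in DC, with a difference of -1.18 ± 0.16 (SE) (adjusted p = 8.87e-05). Ephb3 (adjusted p = 3.98e-04) was detected on no HC array and on 3 of the 5 others, so no size is given. Ephb4 (-0.76, adjusted p = 0.00792) and Ephb6 (-0.74, adjusted p = 0.0110), an Eph receptor that lacks kinase activity, overlapped between HC and the other arrays, and Ephb6 lost its call without DC B, at -0.58 (adjusted p = 0.0570). Robo1, a Slit receptor, was at 11.76, 11.58, 11.51 and 11.60 in HC, against 12.14, 11.85 and 11.86 in GER and 12.72 and 12.80 in DC, lower in HC by -0.75 ± 0.11 (SE) (adjusted p = 1.82e-04). Epha1 (-0.64, adjusted p = 0.00445) was lower as well. Plxna2, a plexin that pairs with neuropilins, was lower, with a difference of -0.54 ± 0.16 (SE) (adjusted p = 0.0154) against both gates together, but its difference was -1.22 against GER and 0.14 against DC alone (adjusted p = 0.644).

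Of the 7 receptor genes that were not called, Unc5b, a netrin receptor, was at 11.17, 11.61, 11.03 and 10.70 in HC, against 10.35, 10.51 and 9.83 in GER and 11.81 and 12.23 in DC: HC lay between the 2 gates, and the difference was 0.00 (95% interval -0.58 to 0.58). Plxnb3 (0.72, adjusted p = 0.0848), Epha3 (0.71, adjusted p = 0.155) and Plxnb1 (-0.61, adjusted p = 0.0874) missed the threshold, as did Epha2, Epha4 and Plxnd1, of which Epha2 and Plxnd1 were detected on no HC, GER or DC array and Epha4 on 2.

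Between the 2 epithelial gates 6 guidance genes were called, 4 receptor and 2 ligand genes. Of the 43 members 1 was higher in GER than in DC (2.33%, against 0.892% of all genes) and 5 were lower (11.6%, against 3.27% of all genes). Plxna2 was the gene that was higher, at 12.27, 12.17 and 12.23 in GER, against 10.85 and 10.88 in DC. The 3 GER arrays lay close together and clear of DC, with a difference of 1.36 ± 0.22 (SE) (adjusted p = 0.00312). Ephb1 showed the reverse, at 9.91, 10.44 and 10.09 in GER, against 11.90 and 12.19 in DC, a difference of -1.90 ± 0.22 (SE) (adjusted p = 4.67e-04). Both calls were kept when each array was left out in turn.

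Sema5a, a transmembrane semaphorin like Sema5b, was at 9.43, 9.36 and 8.45 in GER, against 11.09 and 11.39 in DC (-2.16 ± 0.35 (SE) (adjusted p = 0.00358)). Unc5b was at 10.35, 10.51 and 9.83 in GER, against 11.81 and 12.23 in DC (-1.79 ± 0.36 (SE) (adjusted p = 0.0132)). Efna5 was at 10.89, 10.94 and 10.56 in GER, against 11.49 and 11.81 in DC (-0.85 ± 0.18 (SE) (adjusted p = 0.0201)), and Robo1 was lower in GER by -0.81 ± 0.15 (SE) (adjusted p = 0.00884). The arrays of the gates did not overlap for any of these 4 genes. The same held for 24 of the 43 members and 31.9% of all genes, and with 2 DC arrays the calls were fragile. Without DC B the differences were -2.01 (adjusted p = 0.0641) for Sema5a, -1.58 (adjusted p = 0.176) for Unc5b, -0.69 (adjusted p = 0.270) for Efna5 and -0.77 (adjusted p = 0.118) for Robo1. Without DC A they were -1.999 (adjusted p = 0.0546) for Unc5b and -0.85 (adjusted p = 0.0609) for Robo1, and without GER C -1.59 (adjusted p = 0.0526) for Unc5b and -0.73 (adjusted p = 0.0736) for Efna5. Leaving out DC A or DC B leaves a single DC array, so no counts are given for those fits. Beadchip as a term left 1 higher (0.753% of all genes were) and 5 lower (2.97%). Within beadchip 1 there were 1 (0.783%) and 3 (2.76%), and beadchip 2 held no DC array. Sema3a (-0.75, 95% interval -1.19 to -0.31, adjusted p = 0.0656) and Sema6b (0.72, 0.28 to 1.16, adjusted p = 0.0755) missed the threshold. Both Slit genes had positive but uncalled differences, 0.72 for Slit2 and 0.54 for Slit3.

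**Figure D4:**
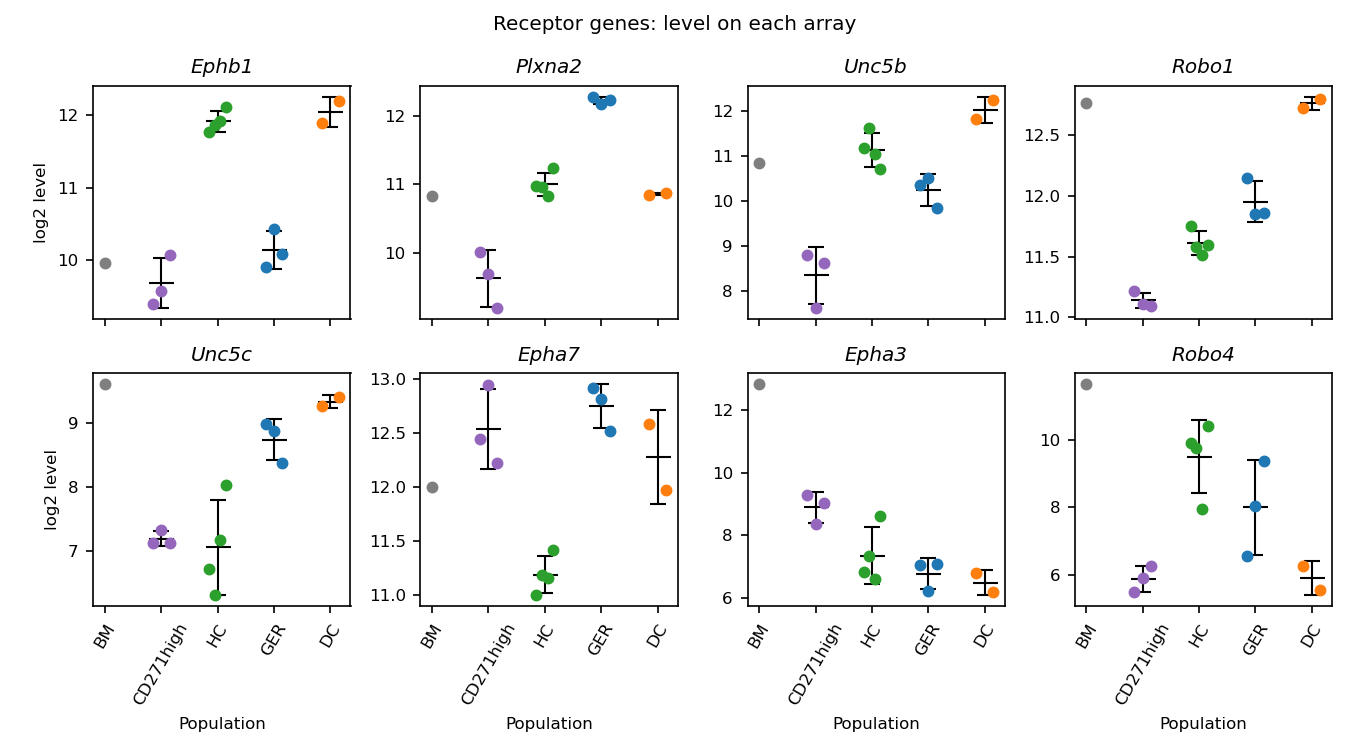
Log2 level of 8 receptor genes on each array (points) by population, with the mean and SD (bars) where a population has more than 1 array. Ephb1 is high in HC and DC and low in GER, Plxna2 is highest in GER, Unc5b and Robo1 are highest in DC among the replicated populations, and Epha3 and Robo4 are highest on the BM array.

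In CD271high cells, of the 43 members, 13 were higher than in HC, GER and DC together (30.2%, against 19.4% of all genes) and 12 were lower (27.9%, against 24.2% of all genes). The median difference was 0.15 over the ligand genes and -0.21 over the receptor genes, beside -0.08 over all genes. Beadchip as a term gave 12 higher (19.8% of all genes were) and 12 lower (24.8%). No counts are given within a single beadchip, since HC A was the only HC array on beadchip 1. On beadchip 2 CD271high and GER have 1 array each and DC none. The count of higher members depended on the population compared with. It was 22 of 43 against HC alone (28.3% of all genes were) and 7 of 43 against DC alone (12.2%). The share over all genes moved the same way. CD271high lay wholly above or below the HC, GER and DC arrays for 14 of the 43 members and 23.0% of all genes. This comparison shares the HC, GER and DC arrays with the one above, so overlaps between them are not independent.

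Slit3, low in hair cells, was highest in CD271high, at 10.04, 10.65 and 10.67 in CD271high, against 6.85, 7.11, 7.50 and 7.01 in HC, 9.37, 9.43 and 9.37 in GER and 8.79 and 8.90 in DC. All 4 replicated populations were separate, and the difference was 2.001 ± 0.17 (SE) (adjusted p = 1.52e-06), 4.002-fold. Sema3c was detected on all 3 CD271high arrays, at 7.88, 7.84 and 8.33, against 5.41, 5.46, 5.54 and 6.49 in HC, 7.52, 6.64 and 7.64 in GER and 6.39 and 6.25 in DC. Among those 9 arrays it was detected on 2, both GER, and the difference was 1.58 ± 0.26 (SE) (adjusted p = 4.00e-04). Ntng1 was at 11.41, 11.07 and 11.25 in CD271high (1.53 ± 0.44 (SE) (adjusted p = 0.0137)) and exceeded every HC, GER and DC array, but most of the difference was to HC: it was 3.17 against HC alone, 0.54 against GER and 0.87 against DC, and 1.44 (adjusted p = 0.0567) without CD271high A. Sema5a was at 11.60, 11.45 and 11.08 in CD271high (1.42 ± 0.26 (SE) (adjusted p = 7.94e-04)), near DC (0.14) and above GER (2.30) and HC (1.84).

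Sema4a, a class 4 semaphorin known from immune cells, was at 9.58, 9.54 and 9.83 in CD271high, against 8.66, 7.97, 7.69 and 7.93 in HC, 8.50, 8.22 and 7.82 in GER and 8.86 and 8.57 in DC. The CD271high arrays were above all 9 others, by 1.33 ± 0.20 (SE) (adjusted p = 2.24e-04). Sema6d was higher by 1.28 ± 0.30 (SE) (adjusted p = 0.00397), Sema3f by 0.76 ± 0.10 (SE) (adjusted p = 9.34e-05) and Efnb2, a transmembrane ephrin, by 0.86 ± 0.28 (SE) (adjusted p = 0.0259). Against HC, GER and DC alone the difference was 1.35, 1.22 and 1.28 for Sema6d. For Sema3f it was 1.72 against HC, 0.46 against GER and 0.12 against DC (adjusted p = 0.614). For Efnb2 it was 1.73 against HC, 0.67 against GER (adjusted p = 0.166) and 0.18 against DC (adjusted p = 0.785), so for both the gap to HC was the widest. The Efnb2 call was lost without CD271high B, at 0.54 (adjusted p = 0.168), without CD271high A, at 0.76 (adjusted p = 0.103), and without DC A, at 0.82 (adjusted p = 0.0558). Sema3b was just past the threshold (0.73 ± 0.26 (SE) (adjusted p = 0.0417)) and lost its call without any one of 8 arrays, HC B, GER A or B, DC A or B and CD271high A, B or C, with differences of 0.68 to 0.79 and adjusted p-values of 0.0566 to 0.123.

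Among the lower ligand genes, Sema3a stood out, at 8.26, 8.07 and 7.88 in CD271high, against 10.35, 10.54, 10.39 and 10.32 in HC, 11.60, 11.27 and 10.96 in GER and 12.17 and 11.87 in DC. Every CD271high array was below every other of these, with a difference of -3.16 ± 0.15 (SE) (adjusted p = 1.26e-08), 8.95-fold lower. Sema6b was at 8.04, 8.38 and 8.19 in CD271high, also below every HC, GER and DC array (-2.22 ± 0.15 (SE) (adjusted p = 2.31e-07)). Sema5b was at 7.47, 6.76 and 6.82, detected on 1 of the 3 arrays; its difference of -2.09 ± 0.18 (SE) (adjusted p = 2.16e-06) was -4.74 against HC and -0.43 against GER (adjusted p = 0.168). Sema7a was detected on no CD271high array and on only 1 GER and 1 DC array, so no fold is given. It was called lower than in the other 3 populations together (means of 6.22 in CD271high and 7.55 over the others, adjusted p = 0.00973). By population the means were 9.65 in HC, 6.09 in GER and 6.91 in DC. Against GER alone the difference was 0.13 (adjusted p = 0.859), and without CD271high C the pooled difference was -1.18 (adjusted p = 0.0505). Sema4f was at 7.46, 7.50 and 8.30 in CD271high, against 8.26, 8.33, 8.74 and 8.98 in HC, 10.06, 10.65 and 10.83 in GER and 9.97 and 10.19 in DC, a difference of -1.98 ± 0.23 (SE) (adjusted p = 2.44e-05) with overlap between CD271high C and HC A. Sema4g (-0.70 ± 0.20 (SE) (adjusted p = 0.0145)) was lower than in GER and DC but not HC, where the difference was 0.49, and its call was lost without CD271high A, at -0.63 (adjusted p = 0.0688), and without CD271high B, at -0.58 (adjusted p = 0.0815).

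In CD271high 4 receptor genes were higher. Plxnb3, a plexin known as a Sema5a receptor, was at 8.89, 8.33 and 8.73 in CD271high, against 7.64, 6.95, 5.96 and 7.73 in HC, 6.58, 6.90 and 6.995 in GER and 5.72 and 6.05 in DC. It was detected on all 3 CD271high arrays and on 2 of the 9 others, both HC, and the difference was 2.05 ± 0.31 (SE) (adjusted p = 2.22e-04). Epha3, an EphA receptor kinase, was at 9.28, 8.35 and 9.03 in CD271high, against 6.81, 7.34, 6.59 and 8.62 in HC, 7.04, 6.20 and 7.07 in GER and 6.78 and 6.20 in DC. HC D reached into the CD271high range, no other array did, and the difference was 2.02 ± 0.39 (SE) (adjusted p = 0.00113), but a second probe, detected on 2 arrays, gave 0.34. Epha2 was detected on 2 CD271high arrays and on no other array, so it passed the filter through CD271high alone and its call supports nothing. Plxnd1 (adjusted p = 2.07e-04), a plexin known as an endothelial Sema3e receptor, was detected on 1 CD271high array and on BM, and on no HC, GER or DC array, so no fold is given. It passed the filter through CD271high and BM alone, so its call supports nothing either. The main probe of Epha7 gave a difference of 0.47 (adjusted p = 0.0569) while its other 2 probes gave 1.76 and 1.69.

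Of the 6 lower receptor genes, Unc5b showed the widest gap, at 8.79, 7.61 and 8.62 in CD271high (-2.79 ± 0.27 (SE) (adjusted p = 4.59e-06), 6.91-fold), below every HC, GER and DC array. Plxna2 was at 10.02, 9.70 and 9.20 (-1.72 ± 0.16 (SE) (adjusted p = 3.55e-06)) and Robo1 at 11.21, 11.11 and 11.10 (-0.97 ± 0.11 (SE) (adjusted p = 2.23e-05)), again below all 9 arrays. Ephb1 was at 9.40, 9.59 and 10.07 (-1.68 ± 0.17 (SE) (adjusted p = 6.14e-06)), close to GER (-0.46, adjusted p = 0.110) and far below HC and DC. Unc5c was lower, with a difference of -1.19 ± 0.29 (SE) (adjusted p = 0.00534), but of 0.14 against HC alone. Robo4 was detected on no CD271high or DC array, so no fold is given. It was at 5.50, 5.91 and 6.26 in CD271high and was called lower (means of 5.89 in CD271high and 7.80 over the others, adjusted p = 0.0158). That call was lost without CD271high A, at -1.72 (adjusted p = 0.0734), and without CD271high B, at -1.92 (adjusted p = 0.0511), and the difference against DC alone was -0.02.

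**Figure D5:**
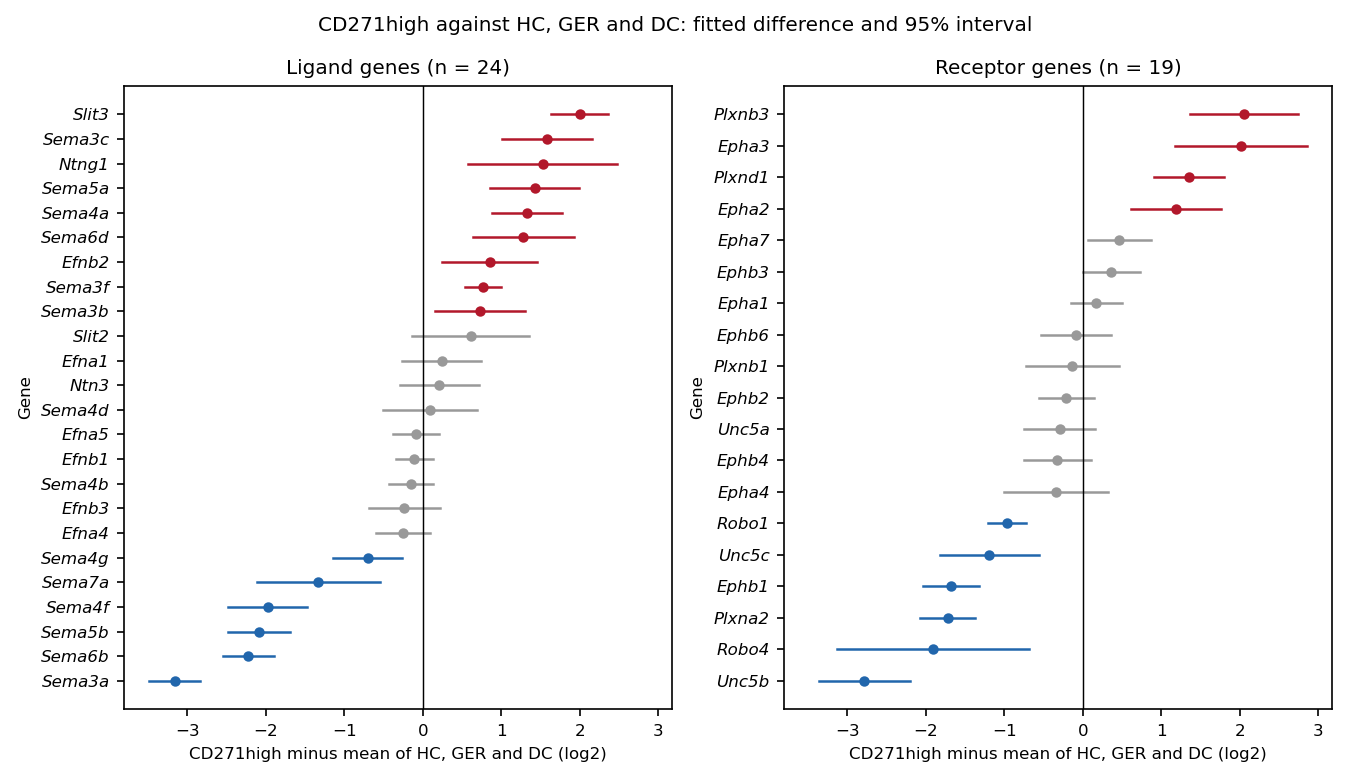
Fitted log2 difference, CD271high minus the mean of HC, GER and DC, for each ligand gene (left) and receptor gene (right) that passed the filter, as points with 95% intervals. Red points are called higher (9 ligand and 4 receptor genes), blue points lower (6 and 6) and grey points did not pass the test.

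Of the genes that the table lists under other symbols, Nrp1 and Ntn5 passed the filter, and both were higher in this population. Nrp1, the neuropilin that binds Sema3a, was at 12.61, 12.44 and 12.48 in CD271high, against 9.03, 9.45, 8.49 and 10.41 in HC, 10.07, 10.26 and 10.41 in GER and 10.35 and 10.24 in DC. CD271high exceeded all 9 arrays, by 2.55 ± 0.30 (SE) (adjusted p = 2.54e-05). Nrp1 was lower in HC than in GER and DC, with a difference of -0.93 ± 0.30 (SE) (adjusted p = 0.0240), or -1.28 without HC D, and lost that call without HC A, at -0.82 (adjusted p = 0.0691), HC C, at -0.64 (adjusted p = 0.0647), DC A, at -0.90 (adjusted p = 0.0678), or DC B, at -0.96 (adjusted p = 0.0524). Ntn5, a netrin-family gene, was at 10.03, 9.73 and 10.70 in CD271high, against 6.49, 6.28, 6.28 and 7.80 in HC, 6.76, 7.12 and 7.32 in GER and 6.99 and 6.87 in DC. It was detected on all 3 CD271high arrays and on 3 of the 9 others, and the difference was 3.25 ± 0.31 (SE) (adjusted p = 4.76e-06). In HC, Ntn5 was not called (-0.28). With these genes counted, 15 genes were higher in CD271high and 25 lower in HC. Beside these values, the 4 measured glia markers (of 8 listed) were detected on every CD271high, GER and DC array. Their mean was 13.6 to 14.1 in CD271high, against 8.23 to 11.9 in HC, 9.52 to 9.89 in GER and 8.92 to 9.29 in DC. The 11 measured macrophage markers (of 12 listed) were all detected on every CD271high array. The part of each cell type in the Nrp1 and Ntn5 levels was not tested.

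The HC and CD271high comparisons share arrays, so their values are only set side by side. Slit3 differed by 2.001 in CD271high and -1.9996 in HC, Ntng1 by 1.53 and -2.46, and Sema3f by 0.76 and -1.43. Sema5b differed by -2.09 in CD271high and 3.97 in HC, and Sema6b by -2.22 and 1.55. In the order of the 4 replicated populations, HC was lowest for 15 of the 24 ligand genes and 9 of the 19 receptor genes. CD271high had the highest level of 9 ligand genes, GER of 8, HC of 4 and DC of 3. Among the receptor genes DC was highest for 8, GER for 5, CD271high for 4 and HC for 2. The leading population overlapped with the next for 10 of the ligand genes and 10 of the receptor genes, so the first place is often shared. This order was not counted over all genes, so it is a description that cannot set the members apart from other genes.

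BM was a single array with no replicate, so it was described without a test, and a gene was counted where BM was at least 2-fold from the average of GER and DC and outside the range of their 5 arrays. By that rule 8 of the 43 members were higher (18.6%, against 12.5% of all genes) and 10 were lower (23.3%, against 12.4% of all genes). Of the receptor genes 4 were higher and 1 lower, and of the ligand genes 4 were higher and 9 lower. Epha3 was at 12.84 in BM, against 7.04, 6.20 and 7.07 in GER and 6.78 and 6.20 in DC, where it was not detected, so BM was at least 52.8-fold higher. Robo4 was at 11.65, above every GER and DC array, on the array with the highest endothelium marker mean. Plxnb3 (9.61) was at least 5.64-fold higher and Plxnd1 (7.74) at least 1.54-fold higher, both undetected in GER and DC. Plxnd1 passed the filter through CD271high and BM alone, so its place in this count supports nothing. Epha1, an EphA receptor detected on the other 12 arrays, was not detected in BM (6.59, against 11.14, 11.22 and 11.29 in GER and 11.24 and 11.22 in DC) and was at least 17.6-fold lower.

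Among the ligand genes, BM was higher in Sema7a (9.20), Sema5a (12.69, 5.77-fold), Ntng1 (11.94, 2.64-fold) and Ntn3 (11.71, against 10.43, 10.89 and 10.66 in GER and 10.15 and 10.16 in DC, 2.46-fold). Sema7a and Robo4 were each detected on 2 of those 5 arrays, so no fold is given for them. For Sema5a, Ntng1 and Ntn3 the BM level was the highest of the 13 arrays. The genes outside the count, Ntn5 (11.56, also detected on 2 of the 5) and Nrp1 (7.35-fold), were also higher in BM. Sema3a was 9.33-fold lower, at 8.43 in BM, against 11.60, 11.27 and 10.96 in GER and 12.17 and 11.87 in DC, and BM fell in the range just above CD271high. Sema4f and Slit3 were not detected in BM and lay at least 9.24-fold lower for Sema4f and 4.08-fold lower for Slit3. Efna1 (3.16-fold), Sema3f (2.70-fold), Slit2 (2.61-fold), Sema6b (2.10-fold) and Efna4 (2.06-fold) were lower by smaller amounts, and Sema3c was not detected in BM. Glia, mesenchyme, endothelium and pericyte markers were all detected on this array, and their part in these values was not tested.

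Known ligand and receptor partners were read side by side, as a description. Of 30 listed pairs, 12 had both partners measured. In HC both partners were lower in 6: Slit2 and Slit3 with Robo1, Efnb1 with Ephb2, Efnb2 with Ephb2 and with Ephb4, and Sema3a with Nrp1. In no pair were both higher. Robo1, Ephb2 and Efnb2 recur among these pairs, so the 6 are not separate cases. In HC 15 of the 24 ligand genes and 9 of the 19 receptor genes were lower. The number of pairs expected from those shares was not computed. The Nrp1 call in HC was lost without HC A, HC C, DC A or DC B. Efna5 (2.33) and Epha7 (-1.33) moved in opposite directions, so hair cells had more ligand and less receptor transcript than GER and DC, while Epha4, another Efna5 receptor, was detected on 2 of the 13 arrays (7.54, 6.01, 6.42 and 6.58 in HC, against 7.15, 6.86 and 6.16 in GER and 6.38 and 7.20 in DC). In CD271high 2 pairs were opposed: Sema3a (-3.16) with Nrp1 (2.55), and Slit3 (2.001) with Robo1 (-0.97). The remaining pairs had at least 1 partner without a call in each of these comparisons, such as Sema4d and its receptor Plxnb1 (Sema4d at 6.76, 7.81 and 6.92 in CD271high, against 7.51, 7.34, 6.78 and 6.84 in HC, 7.84, 7.13 and 6.70 in GER and 6.92 and 6.80 in DC). Efnb1 (9.79, 9.79, 9.93 and 9.86 in HC, against 11.13, 11.05 and 10.97 in GER and 10.90 and 10.70 in DC) and Efnb2 (9.20, 8.69, 8.66 and 8.23 in HC, against 9.55, 9.65 and 10.07 in GER and 10.12 and 10.37 in DC) showed HC below GER and DC on every array, whereas the other B-type ephrin, Efnb3 (6.99, 7.13, 7.41 and 7.24 in HC, against 7.81, 7.32 and 8.09 in GER and 6.84 and 7.37 in DC), overlapped. Of their receptors, Ephb4 was at 7.05, 7.38, 6.65 and 7.18 in HC, against 8.12, 8.03 and 8.35 in GER and 7.14 and 7.81 in DC, and Ephb3 at 6.11, 6.01, 5.85 and 6.34 in HC, against 7.50, 7.26 and 7.23 in GER and 6.51 and 7.14 in DC. For Ephb3 HC lay below both gates, and for Ephb4 it lay below GER but overlapped with DC. Plxnb1 was at 7.79, 7.44, 7.68 and 6.70 in HC, against 8.22, 7.95 and 7.83 in GER and 7.54 and 8.52 in DC, again below GER and overlapping with DC. Epha2, a receptor of Efna1, was at 6.59, 7.29 and 7.06 in CD271high, against 5.199, 5.75, 5.57 and 5.201 in HC, 5.13, 6.08 and 6.33 in GER and 5.72 and 6.45 in DC. It was detected on 2 CD271high arrays and on no other array, so its higher level there supports nothing.

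A list of other guidance genes, downstream effectors and co-receptors, was read in the same fit. Of its 64 genes 56 were on the array and 40 passed the filter. In HC 7 were higher (17.5%, against 19.5% of all genes) and 16 lower (40%, against 26.5%), with a median difference of -0.41, beside -0.09 over all genes. The higher ones were led by effectors of growth cone collapse and the cytoskeleton. Crmp1, a collapsin response mediator that acts below Sema3a, was at 10.16, 10.39, 10.56 and 9.91 in HC, against 5.08, 5.24 and 5.13 in GER and 5.37 and 5.51 in DC. It was detected on every HC array and on no GER or DC array, and was at least 8.82-fold higher (adjusted p = 1.34e-10). Beside it, the 5 measured neuron markers, of 12 listed, were all detected in HC, and Nefm and Rbfox3 of these on no GER or DC array. Their part in the levels of these effectors was not tested. Dpysl3, a relative of Crmp1, differed by 3.19 ± 0.19 (SE) and Pak3, a kinase activated by Rac and Cdc42, by 2.37 ± 0.19 (SE). The largest drops were in Chn2 (-1.83), a Rac inhibitor, Rgma (-1.36), a repulsive ligand of neogenin, Farp1 (-1.34), a Rac activator, and Mical1 (-1.27), an actin-oxidising plexin effector.

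Between GER and DC, none of the 40 was higher (0.892% of all genes were) and 2 were lower (5%, against 3.27% of all genes), the chemokine Cxcl12 (-1.30, adjusted p = 0.0344) and the adhesion molecule Nrcam (-1.06, adjusted p = 0.0148), both by limma's moderated test. In CD271high 8 were higher (20%, against 19.4% of all genes) and 15 lower (37.5%, against 24.2%), with a median difference of -0.29, beside -0.08 over all genes. Flrt1, a transmembrane guidance protein, was higher by 1.30 ± 0.33 (SE), Dpysl5 by 1.18 ± 0.22 (SE), Rgma by 1.13 ± 0.15 (SE) and Rac1 by 1.09 ± 0.15 (SE). Dpysl4 was lower, with a difference of -2.08 ± 0.17 (SE), and so was Pak3 (-1.63 ± 0.19 (SE)). Crmp1 was detected on no CD271high, GER or DC array, so its call as lower there came from HC alone.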

How the data were processed

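Members and lists were chosen with earlier results of these data known. Per the file headers, the deposited scanner table held a mean bead intensity and a detection p-value for 25697 probes on 13 arrays, not normalised; 26 columns of bead error and bead number were not used. The authors' other deposited table, on the log2 scale after their quantile normalisation, served as an alternative. The scanner software is not given in the sources used here. Populations followed the titles; the description of GER C carries the letter A.

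Intensities were background-corrected from the detection p-values and quantile normalised with neqc (limma 3.58.1, R 4.3.3, offset 16), and log2 values were kept for 13192 probes detected (p under 0.01) on at least 2 arrays. Symbols came from the GRCm38.p6 gene table for 24356 probes and from the file for 1341. The probe with the highest mean stood for a gene, leaving 10088 genes. Levels of different genes were not compared. One mean per population was fitted by limma's lmFit with all 13 arrays (8 residual degrees of freedom), then eBayes, two-sided, with Benjamini-Hochberg adjustment over all genes. SE is the standard error of the fitted difference and SD the spread of arrays. "At least" folds set the detected mean against the lowest detected signal of each array. The procedure was tested on simulated data. The precision is limited by the number of arrays (1 to 4 per population), with 40.2% to 45.2% of probes detected per array.

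Any member that passed could be named. Per-array values went to up to 4 ligand and 4 receptor genes in each direction with the largest called difference per comparison (for BM, the largest outside the range of the 5 arrays) and to listed pairs with both partners measured; from the list of other guidance genes, up to 4 in each direction per comparison were named. One gene of that list is not reported here. Alternatives covered background correction, normalisation, the authors' values, detection filter, probe choice, beadchip, replicate letter, samples in the fit, threshold, reference population and each array left out. Counting without Robo4, or with Nrp1 and Ntn5, was chosen after seeing the data.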

Additional observations from a re-analysis of the deposited data

Results flagged for a closer look

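In HC, the only population with 4 arrays, the highest or lowest array was set against the others by Dixon's ratio, the gap to the nearest array divided by the whole range. Of the 43 members tested, 3 passed the critical value for 4 arrays; chance alone passes about 1 in 20. Sema3c stood at 6.49 on HC D, against 5.41 to 5.54 on the other HC arrays, a ratio of 0.876, and was detected on none of the 4. Sema7a stood at 9.95 on HC D, against 9.52 to 9.58, a ratio of 0.862. Sema5b stood at 11.91 on HC C, against 11.68 to 11.72, a ratio of 0.857. For Sema7a and Sema5b all 4 HC arrays, the deviating one included, lay above every GER and DC array.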

How the results depend on the processing

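Signs and calls were recomputed under each alternative. Of the called differences (Nrp1 and Ntn5 included), 13 of 32 in HC, 2 of 6 between GER and DC and 8 of 27 in CD271high kept their call under all of them, and 30, 2 and 21 did when each array was left out in turn. In HC, 11 members were lower within beadchip 2 (5.79% of all genes were), which holds fewer arrays. GER C was the only array to compare with there, so nothing is concluded from this count. Robo4 was at -0.020 within beadchip 2, and against DC alone Ephb1 was at -0.13 and Plxna2 at 0.14. Between GER and DC, 2 members were higher with the mean of all probes (0.942% of all genes were). The lower members were 3 within beadchip 1 (2.76% of all genes), 3 with GER and DC arrays only (3.01%) and 3 at an adjusted p under 0.01 (1.98%). In CD271high, 22 members were higher against HC alone (28.3% of all genes were) and 7 against DC alone (12.2%). Against HC alone Efna4 was at 0.74, Efnb1 at 0.61, Ephb2 at 0.57, Sema4g at 0.49 and Unc5c at 0.14, and against GER alone Efna5 was at 1.11 and Sema7a at 0.13, all of opposite sign to the pooled reference. The cause of these changes was not tested, beyond the fewer arrays or the other reference. With median scaling, or without background correction, no called difference changed sign or lost its call; the authors' values gave the same results as no background correction and count as 1 alternative with it. No count of BM moved past 1.5 times its 18 members.

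With the title letter as a replicate block, 7 members were higher in HC (18.6% of all genes were) and 26 lower (26.9%). In GER against DC, 1 was higher (1.03%) and 4 were lower (3.5%). In CD271high, 14 were higher (20.3%) and 12 lower (24.4%). Same-lettered arrays deviated with correlations of -0.13 to 0.18. Deviations from the mean of so few arrays depend on each other, so these values cannot show whether the letters pair the arrays. GER against DC could not be fitted within beadchip 2, which has no DC array. Of 30 pairings of an array with another population that has its letter, the array correlated best with its own letter in 12. The number expected by chance was not computed. Members near background have a bound or no fold, and DC rests on 2 arrays.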
